A study of Mus musculus with 12 samples.

Results

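The genes described here are 50 mouse genes of the Wnt pathway: 12 ligands, 13 receptors and co-receptors, 13 modulators that make, carry, block or relay the signal, and 12 genes widely used as readouts of it. They were taken by name from the gene column of a whole-genome expression array. A gene was kept if 1 or more groups had its signal well above background throughout, and its brightest probe stands for it. By that rule 48 of the 50 were kept (11 ligands, 13 receptors, 13 modulators and 11 targets), out of 17674 named genes measured in the same way and 23603 named genes on the array. The 2 left out were the ligand Wnt3a and the stem cell marker Lgr5, which were not well above background on all arrays of any group.

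Total RNA came from 12 samples in 4 groups, each hybridised to 1 single-colour array. Mouse embryonic stem cells (mESC), the pluripotent cells of the early embryo kept in culture, were given as Tbx3-low (4 samples) and Tbx3-high (4 samples), Tbx3 being a T-box transcription factor expressed in part of such cultures. Induced pluripotent stem cells (iPSC), somatic cells returned to that state, were given as Tbx3 null (2 samples) and Tbx3 wild type (2 samples). No allele, strain, line, clone, passage, culture medium or reporter is given in the sources used here. Nor do the sources tell if samples sharing a group were grown separately; p-values here measure the spread between these samples, which may be technical. In bulk RNA, fewer cells with a transcript and less transcript per cell cannot be told apart.

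Wnt proteins are lipid-modified secreted ligands: the acyltransferase Porcn attaches the lipid, and the carrier Wls takes the ligand to the cell surface. They bind Frizzled receptors together with the co-receptors Lrp5 and Lrp6, which halts the destruction complex built on Axin, Apc and Gsk3b, so that beta-catenin (Ctnnb1) accumulates and works with the TCF/LEF factors (Tcf7, Lef1, Tcf7l1, Tcf7l2) on target genes. Several targets, among them Axin2, Dkk1, Notum, Rnf43 and Nkd1, in turn restrain the pathway. In mouse pluripotent cells the pathway is known for sustaining self-renewal, in good part by lifting repression by Tcf7l1, and for driving primitive streak genes as cells leave pluripotency.

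The targets are taken to be reached through TCF/LEF sites, and T-box factors such as Tbx3 bind a core written AGGTGT, so promoter stretches with either motif are shown for genes whose values follow. The search covered the 250 bases before each annotated start in RefSeq (GRCm38.p6), both strands, for 4 TCF/LEF spellings and the T-box core. The spellings were CTTTGAT as in Sp5 and Wnt5b, CTTTGAA as in Dkk1, CTTTGTT as in both Dkk1 and Sp5, and CTTTGTA as in a second Lef1 start that is not shown. Promoters were matched for 32 of the 50 genes, with 44 stretches. A TCF/LEF match was present in 8 of the 32 (25%: Dkk1, Fzd7, Lef1, Sp5, Tcf7l2, Tnfrsf19, Wnt11 and Wnt5b) against 16.8% of 27025 genes searched in the same way, and in 4 of the 8 targets matched. A T-box core was present in 4 of the 32 (12.5%: Lef1, Nkd1, Tnfrsf19 and Wnt5b) against 13.6% of all genes. A gene was counted if any of its stretches matched. There were 44 stretches for the 32 genes, 14 for the 8 targets and 32851 for the 27025 genes. The shares are therefore not matched for the number of stretches per gene. A match is a stretch of letters, not a measured site. In the stretches below, written 5′ to 3′ towards the start of the gene, capitals mark the matches.
Dkk1, chr19:30549497-30549746, minus strand, 2 TCF/LEF matches: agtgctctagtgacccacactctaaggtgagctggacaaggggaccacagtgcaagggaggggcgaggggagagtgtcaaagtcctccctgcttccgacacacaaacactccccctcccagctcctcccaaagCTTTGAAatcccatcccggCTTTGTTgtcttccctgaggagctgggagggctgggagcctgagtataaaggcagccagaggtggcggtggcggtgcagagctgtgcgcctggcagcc
Sp5, chr2:70474673-70474922, plus strand, 2 TCF/LEF matches, the first on the reverse strand: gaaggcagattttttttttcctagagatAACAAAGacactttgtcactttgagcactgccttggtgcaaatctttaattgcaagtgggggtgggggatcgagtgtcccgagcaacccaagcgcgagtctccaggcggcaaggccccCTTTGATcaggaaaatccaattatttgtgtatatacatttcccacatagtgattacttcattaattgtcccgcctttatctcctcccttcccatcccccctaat
Lef1, chr3:131112541-131112790, plus strand, 2 T-box cores, both on the reverse strand: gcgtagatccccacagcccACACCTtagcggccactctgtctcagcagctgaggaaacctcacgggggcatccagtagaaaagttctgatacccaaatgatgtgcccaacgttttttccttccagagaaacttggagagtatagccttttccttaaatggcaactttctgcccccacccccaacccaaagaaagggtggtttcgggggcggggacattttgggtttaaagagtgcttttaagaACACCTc
Wnt5b, chr6:119449387-119449636, minus strand, 1 TCF/LEF match and then 1 T-box core on the reverse strand: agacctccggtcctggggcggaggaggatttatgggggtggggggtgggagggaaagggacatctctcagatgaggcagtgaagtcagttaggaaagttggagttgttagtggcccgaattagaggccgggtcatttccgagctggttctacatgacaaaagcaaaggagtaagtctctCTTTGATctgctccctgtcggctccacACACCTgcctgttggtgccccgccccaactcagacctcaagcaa

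Levels are given below as scaled signal, the processed spot signal divided by that array's 75th percentile and multiplied by 100, so a level can be compared between arrays for 1 gene but not between genes. Probe positions are on mm9, and promoter positions above are on GRCm38.p6. Changes are log2 differences of group means ± standard error (SE) from limma fitted to all 12 arrays, and "passed" means a Benjamini-Hochberg adjusted p under 0.05 over every gene tested in that comparison. Tbx3 itself read 5265 to 5411 on the Tbx3-low arrays and 13090.5 to 13872 on the Tbx3-high arrays (log2 change 1.33 ± 0.07, adjusted p = 1.73e-07, limma). Its only probe read 4564 and 4476 on the arrays labelled Tbx3 null and 3190 and 4087 on the wild-type arrays (0.32 ± 0.10 higher in the null label, adjusted p = 0.0294), so the array does not show lower Tbx3 transcript under that label, and whether the probe lies in the altered part of the gene is not known. These samples are therefore called null-labelled. The 10 pluripotency markers listed for this work, Pou5f1, Sox2 and Nanog among them, were well above background in all 12 samples. Low and high arrays lay in different columns of 1 slide, and null-labelled and wild-type arrays in different columns of another, so group and column cannot be told apart.

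In the mESC, 22 of the 45 Wnt pathway genes tested passed, 10 higher and 12 lower in Tbx3-high cells, where 34.8% of all 15706 genes tested passed (19.5% higher and 15.3% lower). The median change of the 45 was 0.01 against 0.04 over all genes, and the median absolute change 0.30 against 0.19. Non-overlapping groups were seen for 24 of the 45, against 35.7% of all genes. The ligands Wnt7b and Wnt8a, the receptors Fzd5 and Fzd10, the planar polarity gene Prickle1, the secreted antagonist Sfrp1, and the targets Lef1 and Dkk1 changed the most. In the iPSC, 24 of 47 passed, 11 higher and 13 lower under the null label, where 38.4% of all 17513 genes tested passed (21.8% higher and 16.6% lower). The median change was -0.11 against 0.07, and the median absolute change 0.57 against 0.32. With 2 arrays a group, 36 of the 47 had groups that did not overlap, against 71.4% of all genes.

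**Figure D1:**
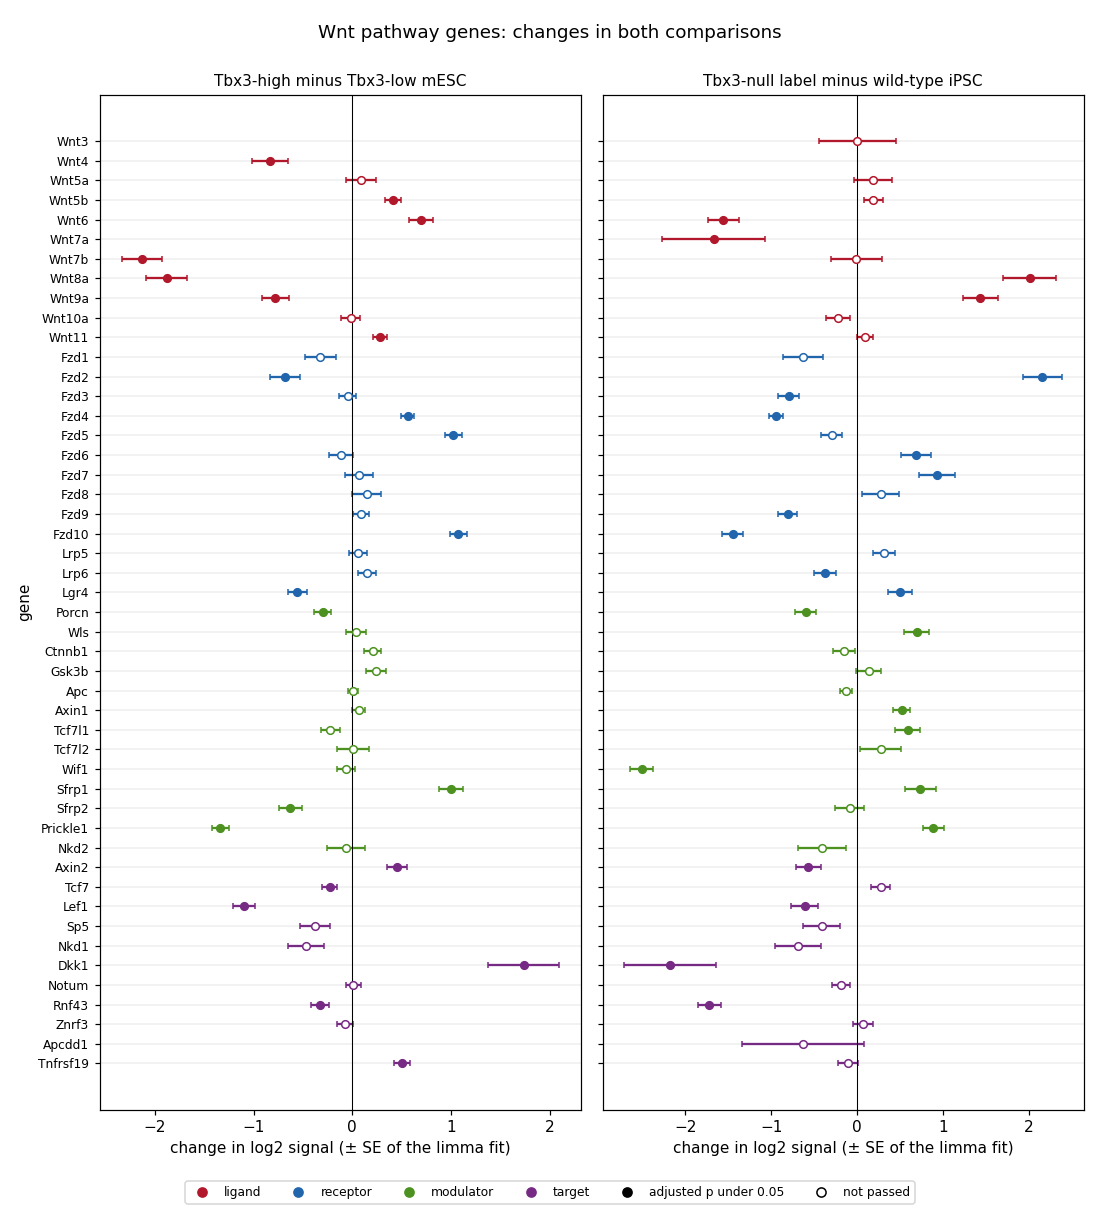
Change of each kept Wnt pathway gene on the log2 scale, with the SE of the limma fit as bars, for Tbx3-high minus Tbx3-low mESC (left) and null-labelled minus wild-type iPSC (right). Filled points passed (adjusted p under 0.05) and colours give the role; a gene with no point was not tested in that comparison. Wnt7b (-2.13) lies farthest from 0 on the left and Wif1 (-2.51) on the right.

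Of the 9 ligands tested in the mESC, 7 passed (77.8%, against 34.8% of all genes), and in the iPSC 4 of 10 did (40%, against 38.4%). In the mESC, Wnt5b, Wnt6 and Wnt11 were higher and Wnt4, Wnt7b, Wnt8a and Wnt9a were lower in Tbx3-high cells. Wnt7b, a ligand best known from lung, kidney and neural development (probe at chr15:85366896-85366955, mm9), read 34.6, 28.2, 38.1 and 40.0 on the low arrays and 7.85, 7.52, 9.72 and 6.98 on the high arrays. Every high array lay below every low array, and the change was -2.13 ± 0.20 (adjusted p = 1.02e-05, limma). In the iPSC the same probe was near background, at 5.35 and 2.70 under the null label and 4.48 and 3.26 in wild type, and the groups overlapped (-0.01 ± 0.30, adjusted p = 0.985). Wnt8a, a ligand known from the primitive streak, read 15.7, 16.6, 17.4 and 15.3 on the low arrays and 2.70, 6.49, 4.48 and 4.83 on the high arrays, of which 3 of 4 were well above background. It was lower by a log2 change of -1.88 ± 0.21 (adjusted p = 3.39e-05). Under the null label Wnt8a read 72.8 and 85.3, against 17.6 and 21.8 in wild type, a change of 2.01 ± 0.31 (adjusted p = 0.000513). The gene was thus lower in Tbx3-high cells and higher under the null label, with no overlap in either system. With normexp background correction in place of the scanner's own, the mESC changes were smaller, at -0.93 for Wnt7b and -0.62 for Wnt8a, and on the authors' deposited table they were -1.14 and -0.89. Both genes still passed.

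Wnt9a read 50.4, 45.8, 75.6 and 58.3 in Tbx3-low and 29.5, 32.8, 34.9 and 34.9 in Tbx3-high mESC (-0.78 ± 0.14, adjusted p = 0.00103, limma). In the iPSC it read 15.8 and 13.5 under the null label and 5.24 and 5.59 in wild type (1.43 ± 0.20, adjusted p = 0.000277). Like Wnt8a, it was lower with the Tbx3-high label and higher with the null label, and the iPSC change was 0.86 with normexp background correction. Wnt6, a ligand linked to endoderm differentiation, moved the other way. It read 44.6, 43.8, 51.4 and 53.7 in Tbx3-low and 85.1, 74.1, 74.3 and 79.3 in Tbx3-high cells (0.70 ± 0.12, adjusted p = 0.00114). It read 15.9 and 16.4 under the null label against 38.2 and 59.4 in wild type (-1.56 ± 0.18, adjusted p = 7.74e-05). No array crossed into the other group in either system. Within the second slide row alone the mESC change of Wnt6 was 0.55 and did not pass (adjusted p = 0.0800).

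Wnt4 read 6.76, 7.94, 8.04 and 8.58 in Tbx3-low cells and 3.29, 6.26, 4.73 and 3.76 in Tbx3-high cells, where 3 of 4 arrays measured it (-0.83 ± 0.19, adjusted p = 0.00461, limma). It is a ligand known from kidney and gonad development, and this probe was not well above background on any iPSC array. A dimmer second Wnt4 probe was, at 2.39 and 3.19 under the null label and 2.83 and 2.14 in wild type, with overlapping groups (0.17 ± 0.47 over all probes, adjusted p = 0.844). The change was -0.17 with normexp correction (adjusted p = 0.243) and -0.69 within the first slide row (adjusted p = 0.133). Wnt5b, a ligand known mostly for beta-catenin-independent signalling, whose promoter stretch above holds both motifs, read 60.4, 63.9, 53.7 and 60.3 in Tbx3-low and 78.3, 78.2, 80.2 and 80.2 in Tbx3-high cells (0.41 ± 0.08, adjusted p = 0.00160). It did not pass within the first slide row (0.33, adjusted p = 0.0760). In the iPSC Wnt5b read 173 and 185 under the null label and 142 and 174 in wild type, and the groups overlapped (0.19 ± 0.11, adjusted p = 0.212). Without the second wild-type array it would have passed (0.34, adjusted p = 0.0460), and without the first the change was 0.04 (adjusted p = 0.848). Wnt7a was well above background on both wild-type iPSC arrays, at 2.57 and 2.59, and on 1 of 4 arrays in each mESC group, and was not well above background under the null label (0.523 and 1.26), which bounds it as at least 1.09-fold lower there. Wnt7a thus entered the iPSC test only through the wild-type group, where it read higher. Its fitted change was -1.67 ± 0.60 (adjusted p = 0.0493), and it did not pass without null-labelled array 1 (-1.03, adjusted p = 0.307), without wild-type array 1 (-1.67, adjusted p = 0.148) or without wild-type array 2 (-1.66, adjusted p = 0.139).

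Wnt3, the ligand that starts primitive streak formation in the embryo, sat at the edge of detection. Its low arrays read 2.29, 5.08, 4.47 and 4.76, with 3 of 4 well above background, and its high arrays 1.48, 1.74, 0.779 and 0.770, with none, so it entered no mESC test. In the iPSC it read 3.35 and 3.59 under the null label and 3.77 and 3.19 in wild type (-0.00 ± 0.45, adjusted p = 0.998, limma), and those groups overlapped. The other ligands tested, Wnt5a, Wnt10a and Wnt11, changed by 0.28 or less in absolute value in both systems. Of these only Wnt11 passed, in the mESC (0.28 ± 0.07, adjusted p = 0.00782).

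**Figure D2:**
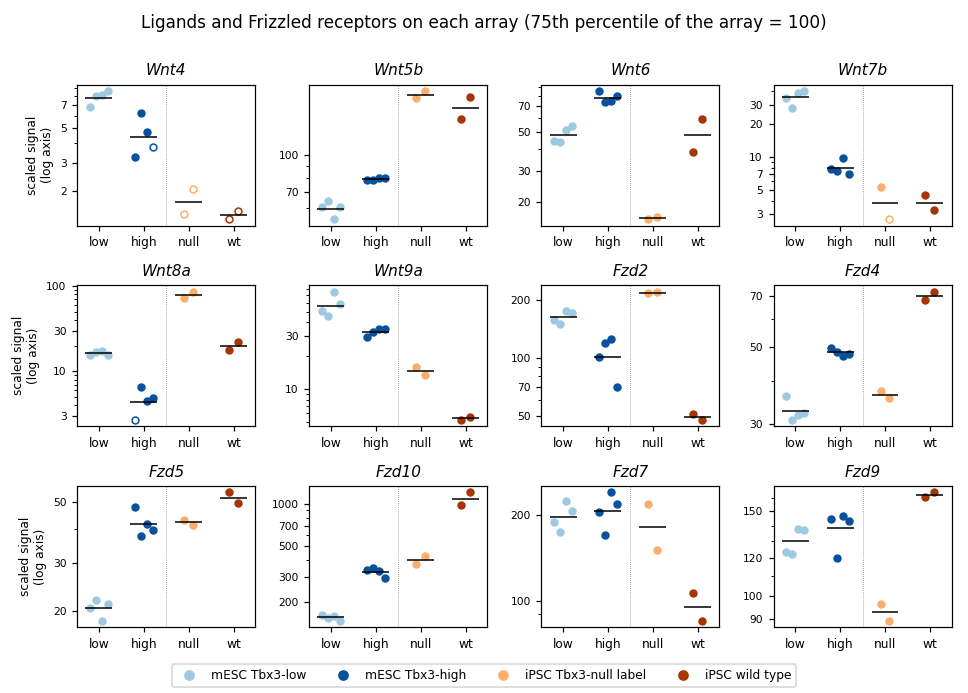
Scaled signal (array's 75th percentile = 100, log axis, a scale of its own in each panel) of 6 ligands and 6 Frizzled receptors on each array, with group means on the log scale as black lines. Open points were not well above background. Wnt8a, Wnt9a and Fzd2 are lower in Tbx3-high than Tbx3-low mESC and higher in null-labelled than wild-type iPSC, and Wnt6, Fzd4 and Fzd10 run the opposite way.

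Among the 13 receptors, 5 passed in the mESC (3 higher and 2 lower in Tbx3-high) and 9 in the iPSC (4 higher and 5 lower under the null label). These are 38.5% and 69.2%, where 34.8% and 38.4% of all genes passed. Fzd10, a Frizzled receptor (probe at chr5:129109798-129109857), read 163, 154, 161 and 148 in Tbx3-low and 338, 350, 335 and 297 in Tbx3-high cells, about a doubling on every array (1.07 ± 0.08, adjusted p = 2.61e-06, limma). It read 372 and 425 under the null label and 977 and 1208 in wild type (-1.45 ± 0.12, adjusted p = 7.39e-06). Fzd4, the receptor that also answers the non-Wnt ligand norrin, followed the same pattern at a smaller size. It read 36.1, 30.8, 31.8 and 32.4 in Tbx3-low against 49.6, 48.5, 47.1 and 47.7 in Tbx3-high cells (0.56 ± 0.06, adjusted p = 3.85e-05), and 37.2 and 35.6 under the null label against 68.2 and 72.1 in wild type (-0.95 ± 0.09, adjusted p = 1.42e-05). The groups of both receptors were apart in both systems. Fzd4 changed by 0.31 in the mESC with normexp correction and still passed.

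Fzd2, a receptor for Wnt5a-type as well as canonical ligands (probe at chr11:102467613-102467672), had the largest change of any Frizzled gene. Under the null label it read 217 and 221, against 51.1 and 47.4 in wild type (2.15 ± 0.22, adjusted p = 3.62e-05, limma). In the mESC it read 157, 150, 175 and 172 in Tbx3-low and 101, 120, 126 and 70.2 in Tbx3-high cells, where the fourth high array was the lowest (-0.68 ± 0.15, adjusted p = 0.00482). A second Fzd2 probe was well above background on the null-labelled arrays alone, at 7.09 and 6.24, and when both probes were averaged the mESC change was -0.01 (adjusted p = 0.972). Lgr4, the receptor through which R-spondins strengthen Wnt signalling, read 47.6, 48.7, 51.4 and 46.8 in Tbx3-low and 28.4, 31.3, 36.4 and 36.9 in Tbx3-high cells (-0.56 ± 0.10, adjusted p = 0.000970). It was higher under the null label, at 54.8 and 48.3 against 33.2 and 39.8 (0.50 ± 0.14, adjusted p = 0.0162). The iPSC call of Lgr4 was lost without null-labelled array 1 (0.41, adjusted p = 0.109) or wild-type array 1 (0.37, adjusted p = 0.130).

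Fzd5, an early embryonic and yolk sac receptor, doubled in Tbx3-high cells: 20.5, 21.8, 18.4 and 21.1 against 48.0, 37.7, 41.8 and 39.5 (1.03 ± 0.09, adjusted p = 4.06e-06, limma; 0.64 with normexp correction, which still passed). In the iPSC its brighter probe read 43.1 and 41.5 under the null label and 54.5 and 49.7 in wild type and did not pass (-0.30 ± 0.12, adjusted p = 0.0787), whereas its other probe, fitted over all 36712 probes tested, gave -0.79 ± 0.18 (adjusted p = 0.00776). The remaining calls were seen in the iPSC. Fzd7, the most studied Frizzled of embryonic stem cells, read 218 and 151 under the null label and 106.6 and 85.4 in wild type (0.93 ± 0.21, adjusted p = 0.00523), and in the mESC its groups overlapped, at 188, 174, 223 and 206 in low and 204, 169, 239 and 219 in high arrays. It did not pass without null-labelled array 1 (0.66, adjusted p = 0.0512). Fzd6, which works in planar polarity, read 15.9 and 12.9 against 9.05 and 8.78 in wild type (0.68 ± 0.18, adjusted p = 0.0114), and it was lost without null-labelled array 1 (0.53, adjusted p = 0.0932) or wild-type array 2 (0.66, adjusted p = 0.0539). In the mESC it spanned 9.08 to 13.9 over both groups.

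Fzd3 and Fzd9 were lower under the null label. Fzd3, a receptor of axon guidance, read 25.9 and 24.9 against 40.9 and 47.9 in wild type (-0.80 ± 0.12, adjusted p = 0.000463, limma), and in the mESC it read 50.6, 56.9, 48.8 and 53.3 in low and 45.3, 50.4, 50.6 and 57.1 in high arrays. Fzd9 read 96.3 and 89.1 against 161 and 164 (-0.81 ± 0.11, adjusted p = 0.000264). Its low arrays read 123, 122, 138 and 137 and its high arrays 145, 120, 147 and 144, which overlapped through the second high array. Fzd1 read 18.4, 17.6, 25.8 and 24.1 in low and 15.4, 15.9, 17.9 and 18.7 in high arrays (-0.32 ± 0.16, adjusted p = 0.138). It read 12.2 and 8.15 under the null label and 17.5 and 13.7 in wild type (-0.63 ± 0.23, adjusted p = 0.0534). Without null-labelled array 1 the iPSC change of Fzd1 would have passed (-0.92, adjusted p = 0.0215), and without null-labelled array 2 it was -0.34 (adjusted p = 0.340). The co-receptor Lrp6 was lower under the null label by its brightest probe (-0.37 ± 0.13, adjusted p = 0.0371, limma). Fitted over all 36712 probes that probe did not pass (adjusted p = 0.0568). The other Lrp6 probe gave 0.21 ± 0.22 (adjusted p = 0.543), in the other direction. Neither Lrp5 nor Fzd8 passed in either system, with changes from 0.06 to 0.31.

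Among the 13 modulators, 4 passed in the mESC (1 higher and 3 lower) and 7 in the iPSC (5 higher and 2 lower). These are 30.8% and 53.8%, where 34.8% and 38.4% of all genes passed. Prickle1, a core gene of planar cell polarity (probe at chr15:93329546-93329605), read 120, 110, 122 and 118 in Tbx3-low and 40.9, 43.5, 51.7 and 51.0 in Tbx3-high cells (-1.34 ± 0.09, adjusted p = 5.52e-07, limma). Under the null label it read 140 and 147 against 73.0 and 82.9 in wild type (0.88 ± 0.12, adjusted p = 0.000276). The 2 groups were well apart in both systems. The secreted antagonists split. Sfrp1, which binds Wnt proteins outside the cell, read 127, 141, 108 and 123 in Tbx3-low and 245, 238, 278 and 232 in Tbx3-high cells, a doubling (0.997 ± 0.12, adjusted p = 7.54e-05). It was also higher under the null label, at 112 and 109 against 54.5 and 81.3 (0.74 ± 0.18, adjusted p = 0.00814), but not past the threshold without wild-type array 1 (0.45, adjusted p = 0.0677). Its relative Sfrp2 was lower in Tbx3-high cells, at 56.6, 45.7, 58.5 and 58.0 against 75.7, 81.5, 87.1 and 92.8 (-0.63 ± 0.12, adjusted p = 0.00159). In the iPSC Sfrp2 read 146 and 110 under the null label and 148 and 123 in wild type, and the groups overlapped (-0.09 ± 0.17, adjusted p = 0.722).

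Wif1, another secreted inhibitor that binds the ligands (probe at chr10:120537079-120537138), had the largest iPSC change of the 47 genes tested. It read 4.89 and 3.87 under the null label and 22.8 and 27.1 in wild type (-2.51 ± 0.13, adjusted p = 2.53e-07, limma). It read 8.45, 9.69, 9.24 and 8.14 in Tbx3-low and 8.27, 8.57, 8.63 and 8.43 in Tbx3-high cells, with the groups overlapping (-0.06 ± 0.09, adjusted p = 0.631). The iPSC change was -1.28 with normexp correction and -1.48 on the authors' deposited table, and passed on both.

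The genes that make and carry the ligands moved apart in the iPSC. Porcn was lower under the null label, at 1423 and 1477 against 2262 and 2141 (-0.60 ± 0.12, adjusted p = 0.00292, limma), and Wls was higher, at 140 and 130 against 73.8 and 94.4 (0.69 ± 0.15, adjusted p = 0.00448). In the mESC Porcn read 673, 727, 821 and 777 in low and 527, 619, 669 and 622 in high arrays, which just did not overlap (-0.30 ± 0.09, adjusted p = 0.0183). That call was lost without the third low array (-0.26, adjusted p = 0.0529) and within the first slide row (-0.29, adjusted p = 0.0887). Wls did not pass there, at 33.2, 31.5, 29.8 and 34.3 in low and 29.3, 31.1, 33.3 and 39.2 in high arrays. Inside the cell, the scaffold Axin1 was higher under the null label, at 396 and 357 against 253 and 274 (0.51 ± 0.10, adjusted p = 0.00185), and in the mESC it spanned 368 to 430 over both groups. Tcf7l1, the main repressor of the TCF/LEF family in pluripotent cells, read 560 and 569 under the null label and 354 and 399 in wild type (0.59 ± 0.14, adjusted p = 0.00850). It was lost without wild-type array 1 (0.50, adjusted p = 0.0660), and in the mESC it read 231, 247, 316 and 262 in low and 208, 224, 254 and 217 in high arrays. Ctnnb1 itself, Gsk3b, Apc and Nkd2 did not pass in either system, and Ctnnb1 read 2003 to 2855 over all 12 arrays. Another Gsk3b probe, fitted over all probes, did pass in the mESC (0.53 ± 0.09, adjusted p = 0.000906) and in the iPSC (-0.56 ± 0.12, adjusted p = 0.00665).

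Tcf7l2, another TCF/LEF member, had 3 probes that disagreed. They lie in order along the gene on chromosome 19 (mm9, plus strand), the first 30 of the 60 bases of each being shown to tell them apart.
Tcf7l2 first probe, chr19:55817272-55817331: agacggcctccgcctcgctccgaaagtttc
Tcf7l2 second probe, chr19:55994029-55994088: caaaatactacgagctggcccggaaggaac
Tcf7l2 last probe, chr19:56006638-56006697: tgttatgtagttcggatagcttagttttaa
The first, brightest probe read 56.7 and 82.1 under the null label and 56.3 and 56.7 in wild type (0.27 ± 0.25 in the limma fit over 36712 probes, adjusted p = 0.478). The second, 176757 bases further on, read 9.24 and 9.29 against 19.99 and 26.7 (-1.32 ± 0.19, adjusted p = 0.000508), and the last, 189366 bases on, read 3.65 and 3.06 against 15.7 and 13.5 (-2.12 ± 0.22, adjusted p = 6.88e-05). The later probes thus separated the iPSC groups and the first did not. In the mESC the second probe alone passed among 30691 probes, at 8.93, 9.39, 11.003 and 10.73 in low and 13.1, 16.5, 11.3 and 13.4 in high arrays (0.43 ± 0.13, adjusted p = 0.0298). Which transcripts each probe detects was not tested.

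**Figure D3:**
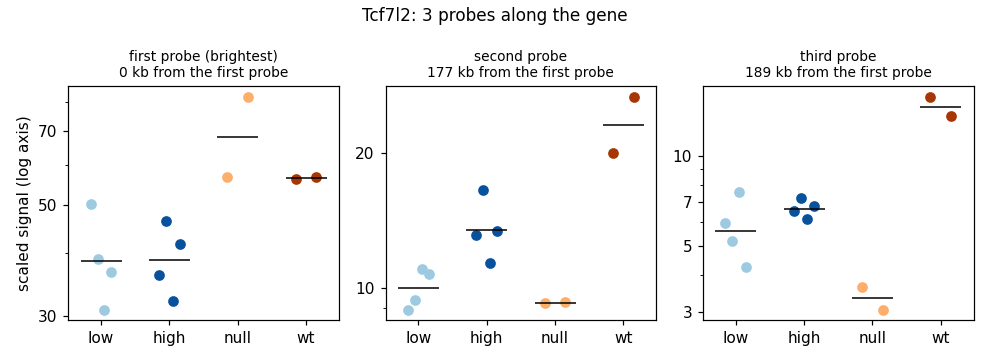
Scaled signal of the 3 Tcf7l2 probes on each array (log axis, a scale of its own in each panel), in the order of their position along the gene, with group means on the log scale as lines. The 2 later probes are lower in both null-labelled arrays than in both wild-type arrays, and the first is not.

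Of the targets, 6 of 10 tested passed in the mESC (3 higher and 3 lower) and 4 of 11 in the iPSC, all 4 lower under the null label. These are 60% and 36.4%, where 34.8% and 38.4% of all genes passed, so the iPSC share lies near that of all genes. Lef1, a TCF/LEF factor that is itself a Wnt target (probe at chr3:130926200-130926259), read 331, 306, 370 and 372 in Tbx3-low and 176, 139, 166 and 163 in Tbx3-high cells (-1.10 ± 0.11, adjusted p = 1.43e-05, limma). In the iPSC it read 537 and 453 under the null label and 855 and 664 in wild type (-0.61 ± 0.16, adjusted p = 0.0111). Lef1, with T-box cores in the stretch shown above, was thus lower in Tbx3-high than in Tbx3-low cells and also lower in null-labelled than in wild-type cells. The iPSC call was lost without null-labelled array 2 (-0.49, adjusted p = 0.0795), without wild-type array 1 (-0.43, adjusted p = 0.102) and with median scaling (-0.50, adjusted p = 0.0665).

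Dkk1, a secreted inhibitor that blocks Lrp5 and Lrp6 (probe at chr19:30621424-30621483), read 4.04, 2.59, 0.961 and 2.15 in Tbx3-low cells, where 1 of 4 arrays was well above background, and 5.69, 7.25, 7.73 and 8.35 in Tbx3-high cells (1.74 ± 0.36, adjusted p = 0.00294, limma). Under the null label it read 1.97 and 3.24, with 1 of 2 arrays well above background, against 9.43 and 13.9 in wild type (-2.18 ± 0.53, adjusted p = 0.00828). Every Tbx3-high and wild-type array lay above every array of its partner group, but the sizes rest on dim spots. Dkk1 also entered each test only through the group where it read higher, so this separation is no separate support. With normexp correction the changes were 0.34 (adjusted p = 0.0553) and -0.62 (adjusted p = 0.0122), and in the authors' deposited table the changes were 0.53 and -0.83, which both passed. The mESC change was 0.99 within the first slide row (adjusted p = 0.0528), and the iPSC call was lost without null-labelled array 1 (-1.82, adjusted p = 0.0674) or wild-type array 2 (-1.90, adjusted p = 0.0581).

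Axin2, the most used readout of the pathway and a second scaffold of the destruction complex, read 45.4, 39.7, 44.0 and 46.7 in Tbx3-low and 60.6, 58.7, 58.6 and 62.6 in Tbx3-high cells (0.46 ± 0.10, adjusted p = 0.00451, limma). Within a slide row it was 0.49 (adjusted p = 0.0667) and 0.42 (adjusted p = 0.113), and with its probes averaged 0.45 (adjusted p = 0.0502), none of which passed. In the iPSC it read 156 and 156 under the null label and 193 and 278 in wild type (-0.57 ± 0.15, adjusted p = 0.0106). That call was lost without wild-type array 2 (-0.30, adjusted p = 0.0634), with median scaling (-0.46, adjusted p = 0.0558), in a fit to the iPSC arrays alone (adjusted p = 0.0727) and with both its probes averaged (-0.29, adjusted p = 0.366). Rnf43, a ubiquitin ligase that removes Frizzled receptors from the surface (probe at chr11:87548958-87549017), read 11.8 and 10.1 under the null label against 35.3 and 36.9 in wild type (-1.72 ± 0.13, adjusted p = 4.48e-06; -1.13 with normexp correction, which still passed). In the mESC it read 46.7, 44.9, 49.2 and 44.2 in Tbx3-low and 44.0, 37.2, 32.7 and 34.6 in Tbx3-high cells, and the first high array lay close to the low ones (-0.32 ± 0.09, adjusted p = 0.0186). That call was lost without the third low array (-0.29, adjusted p = 0.0510), the third high array (-0.27, adjusted p = 0.0523) or the fourth high array (-0.29, adjusted p = 0.0525), and within the first slide row (-0.18, adjusted p = 0.317). Its homologue Znrf3 did not pass in either system (-0.07 ± 0.08 and 0.06 ± 0.12).

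Tnfrsf19, a receptor of the tumour necrosis factor family that is a known Wnt target, read 93.8, 88.9, 99.7 and 100.3 in Tbx3-low and 135, 119, 153 and 136 in Tbx3-high cells (0.50 ± 0.08, adjusted p = 0.000605, limma), whereas its other probe gave 0.07 ± 0.12 and the mean of both 0.28. In the iPSC it spanned 203 to 236 over both groups. Sp5, a transcription factor that Wnt signalling induces directly and whose promoter stretch holds 2 TCF/LEF matches, read 41.1, 35.4, 34.2 and 36.8 in low and 28.8, 28.9, 30.9 and 25.1 in high arrays (-0.38 ± 0.15, adjusted p = 0.0731). It read 830 and 1045 under the null label against 946 and 1631 in wild type (-0.42 ± 0.22, adjusted p = 0.165), and would have passed there without wild-type array 1 (-0.81, adjusted p = 0.00708), whereas without wild-type array 2 the change was -0.02 (adjusted p = 0.941). Nkd1, an inhibitor that binds Dishevelled, read 40.0, 41.2, 77.2 and 42.4 in low and 29.97, 34.9, 38.2 and 36.4 in high arrays (-0.47 ± 0.18, adjusted p = 0.0651), and 26.8 and 26.4 under the null label against 42.3 and 43.9 in wild type (-0.70 ± 0.27, adjusted p = 0.0639). Its groups did not overlap in either system, although neither comparison passed. Without the third low array the mESC change of Nkd1 was -0.25 (adjusted p = 0.0503), without the first low array it passed (-0.56, adjusted p = 0.0479), and the mean of its probes turned it to 0.20 (adjusted p = 0.416). It passed with a slide-row block (adjusted p = 0.0336), a replicate block (adjusted p = 0.0290), normexp correction and the authors' deposited table. The iPSC change of Nkd1 passed with a replicate block (adjusted p = 0.0362), normexp correction, array weights and in a fit to the iPSC arrays alone. The mean of its probes gave -0.06 there (adjusted p = 0.890). A dimmer second Nkd1 probe read 1.09 to 4.37 and was not well above background on any low, null-labelled or wild-type array. Tcf7 was lower in Tbx3-high cells (-0.23 ± 0.08, adjusted p = 0.0397), and Notum passed in neither system. Apcdd1 was tested in the iPSC alone and did not pass (-0.64 ± 0.71, adjusted p = 0.526).

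**Figure D4:**
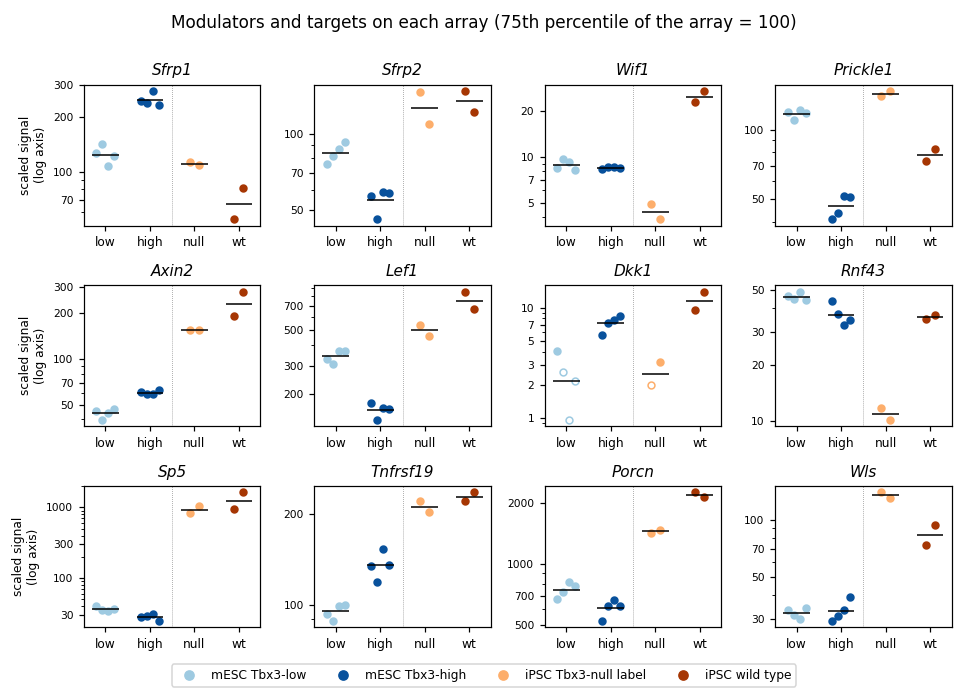
Scaled signal (array's 75th percentile = 100, log axis, a scale of its own in each panel) of 6 modulators and 6 targets on each array, with group means on the log scale as lines and open points for spots not well above background. Prickle1 and Lef1 are lower in all Tbx3-high than in all Tbx3-low arrays, and Wif1 and Rnf43 are lower in both null-labelled than in both wild-type arrays.

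Both comparisons could be set side by side for 44 of the genes. They share no array, but each gene's spread was estimated from the mESC and iPSC arrays together. The calls of the comparisons are therefore not independent, for the Wnt pathway genes or for all genes. Of these, 21 passed in the mESC and 23 in the iPSC, with 14 in both (66.7% of the 21 and 60.9% of the 23). Over all 15545 genes tested in both, the genes passing in both were 54.1% of the mESC calls and 46.3% of the iPSC calls. Relative to the labels, 10 of the 14 moved the same way, the Tbx3-high cells differing from Tbx3-low as the wild type did from the null label: Axin2, Dkk1, Fzd4, Fzd10 and Wnt6 were higher and Fzd2, Lgr4, Prickle1, Wnt8a and Wnt9a lower. The other 4, Lef1, Porcn, Rnf43 and Sfrp1, moved in opposite ways. Among the 10, Dkk1 entered both tests only through the group where it read higher. Over all genes, 69.9% of the 2921 that passed in both moved the same way, so the share of 71.4% among the Wnt pathway genes lies near that background. Since the array does not show less Tbx3 under the null label, these directions follow the labels and not the measured Tbx3 level.

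The difference between the 2 contrasts, (Tbx3-high minus Tbx3-low) minus (wild type minus null-labelled), was tested directly for 48 genes, and 23 passed (8 higher and 15 lower), where 33.7% of 17674 genes did (19.7% higher and 14% lower). With median scaling 19 passed, 9 higher and 10 lower. It was farthest below 0 for Wif1 (-2.58 ± 0.16, adjusted p = 1.82e-06, limma), which differed in the iPSC and not measurably in the mESC, for Wnt7b (-2.14 ± 0.37, adjusted p = 0.00143), which differed in the mESC, for Rnf43 (-2.05 ± 0.16, adjusted p = 1.08e-05) and Lef1 (-1.71 ± 0.19, adjusted p = 0.000107), which were lower in both the Tbx3-high and the null-labelled cells, and for Wnt3 (-1.83 ± 0.55, adjusted p = 0.0272). The Wnt3 value rests on mESC spots mostly not well above background: it was -0.12 with normexp correction (adjusted p = 0.574), and its call was lost without null-labelled array 1 (-1.78, adjusted p = 0.0850) or 2 (-1.88, adjusted p = 0.0637), without wild-type array 1 (-1.71, adjusted p = 0.0957) or 2 (-1.95, adjusted p = 0.0571), and with a replicate block (adjusted p = 0.0578). It was farthest above 0 for Sfrp1 (1.73 ± 0.22, adjusted p = 0.000227), which was higher in both, and for Fzd2 (1.47 ± 0.28, adjusted p = 0.00253), which moved the same way relative to the labels but further in the iPSC. For Wnt8a (0.13 ± 0.38, adjusted p = 0.827) and Lgr4 (-0.06 ± 0.17, adjusted p = 0.836) no difference between the contrasts passed, which does not show that they were equal. The Wnt8a difference did pass with normexp correction and on the authors' deposited table, and ran from -0.06 to 1.10 over the alternatives.

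**Figure D5:**
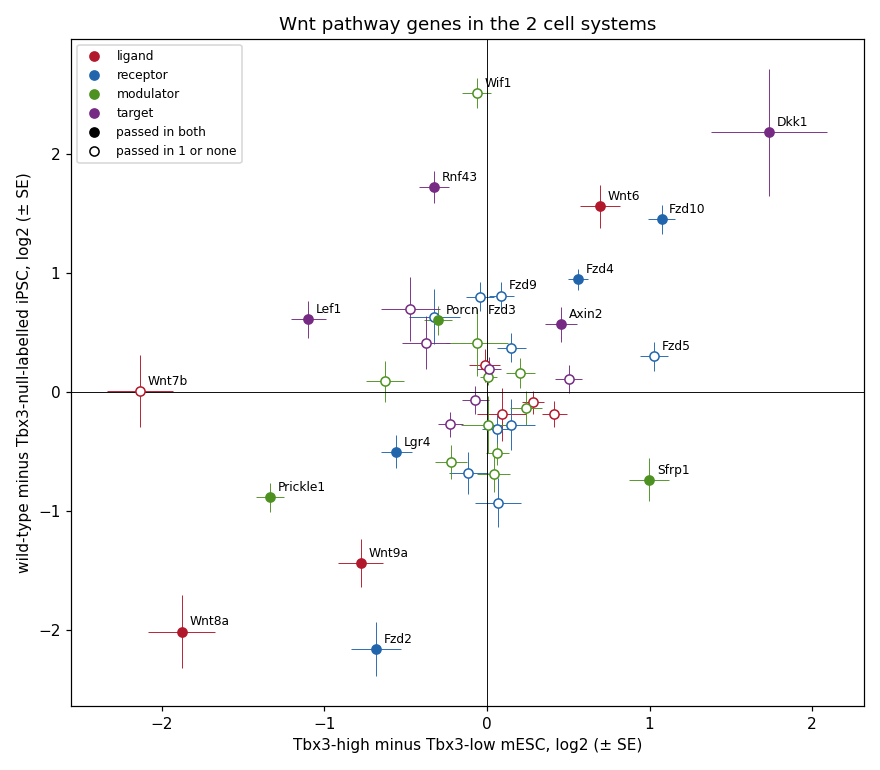
Log2 change of the 44 Wnt pathway genes tested in both systems, Tbx3-high minus Tbx3-low mESC on the x axis and wild-type minus null-labelled iPSC on the y axis, with SE bars, so that genes moving the same way relative to the labels lie at upper right and lower left. Filled points passed in both comparisons: 10 of these 14 lie in those corners, and Lef1, Porcn, Rnf43 and Sfrp1 do not.

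Beyond the 50, 67 further genes of the pathway were listed (other antagonists, Dishevelled and Groucho family genes, planar polarity genes and further targets). Of the 52 tested in the mESC, 17 passed, 12 higher and 5 lower, a share near that of all genes. Cdx1, a homeobox gene and direct Wnt target, rose from 242, 285, 266 and 315 in Tbx3-low to 2004, 1880, 2060 and 1981 in Tbx3-high cells (2.84 ± 0.10, adjusted p = 7.90e-09, limma). The Wnt receptor Ror2 (0.91 ± 0.11), the antagonist Sfrp4 (0.74 ± 0.10) and the planar polarity gene Vangl1 (0.69 ± 0.11) were higher, and the Dishevelled-binding Dact1 was lower (-1.08 ± 0.10). In the iPSC, 21 of 54 passed, 10 higher and 11 lower, a share of 38.9% that lies near the 38.4% of all genes. The largest was T, the primitive streak gene also called Brachyury, at 9.89 and 15.0 under the null label against 130 and 229 in wild type (-3.83 ± 0.37, adjusted p = 2.13e-05). It was followed by the antagonists Dkk4 (-2.17 ± 0.47), Dkk3 (-2.14 ± 0.13) and Sfrp4 (-2.06 ± 0.15) and by Cdx2 (-1.64 ± 0.56), all lower under the null label. The difference between the contrasts passed for 24 of 54 (44.4%, against 33.7% of all genes). It was largest for T (-3.21 ± 0.45), Dkk4 (-2.53 ± 0.58), Cdx2 (-2.37 ± 0.69), Dkk3 (-1.79 ± 0.16) and Sp8 (1.74 ± 0.32), of which Dkk4 was not well above background on any mESC array and Cdx2 on 1 of 8.

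Markers of other cell types were read in the same groups, where 34.8% of all genes tested passed in the mESC and 38.4% in the iPSC. Of 10 primitive endoderm markers, 7 passed as higher in Tbx3-high mESC, and in the iPSC 6 passed as lower and 1, Sparc (0.45 ± 0.09), as higher under the null label. Their summed scaled signal was 13451 to 14299 on the low, 16083 to 17858 on the high, 14499 to 15026 on the null-labelled and 10848 to 12660 on the wild-type arrays, with Foxa2 and Pdgfra not above background under the null label. The iPSC sum was thus higher under the null label, although more of these markers passed as lower there than as higher. A sum is weighted to the brightest probes, and levels cannot be compared between genes, so it does not measure the amount of endoderm. Of 8 primitive streak markers, 6 were tested in each system: 2 were higher and 1 lower in Tbx3-high mESC, and 4 were lower under the null label, where the sum was 192 to 210 against 526 to 661 in wild type, and in the mESC 105 to 124 in low against 163 to 209 in high arrays. Mixl1 and Mesp1 were not above background in either iPSC group. Of 10 fibroblast markers, 2 of the 6 tested in the mESC passed, a share of 33.3% that lies near that of all genes. They were Col1a1 (1.54 ± 0.10) and Pdgfrb (1.83 ± 0.10), both higher in Tbx3-high cells. In the iPSC 4 of 9 passed (44.4%), in both directions. Col1a1 (-2.32 ± 0.15) and Pdgfrb (-2.22 ± 0.14) were lower and Acta2 (1.16 ± 0.37) and Lum (2.58 ± 0.26) higher under the null label. Fibroblast markers summed to 285 to 310 on the low, 344 to 2815 on the high, 144 to 145 on the null-labelled and 246 to 262 on the wild-type arrays, with Postn not above background in any group, and the highest sum held a Thy1 reading of 2661 on the second high array against 168 to 195 on the other high arrays. The part of these cell types in the values of the Wnt pathway genes was not tested.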

How the data were processed

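Agilent single-colour arrays of 12 RNA samples were used, 1 array each. Per the file headers, the authors' scanner files came from Feature Extraction 10.7.3.1 and hold a spot intensity after background subtraction and detrending, not scaled between arrays, with probes placed on mm9. The authors also deposited a table of log2 values with no normalization or centring named; its array medians were 6.58 to 6.61, each column followed log2 of the mean spot signal of its own array (r = 0.999), and it was used as an alternative only. Here processed signals were put on the log2 scale and the 75th percentile of their array was subtracted, control spots left out, outlier-marked spots set to missing and spots of a probe averaged. Probes were named through RefSeq by accession (27656 probes), symbol (3401) or synonym (307), 1341 kept the file's name, and 22976 had none. Genes not well above background throughout 1 of the groups compared were left out of that comparison. Groups followed the labels. limma 3.58.1 (R 4.3.3, lmFit and eBayes) was fitted to all 12 arrays with 4 group means (8 residual degrees of freedom), with Benjamini-Hochberg adjustment over all genes tested; every adjusted p in the text is from limma. In data simulated for the mESC comparison (15706 genes, 15506 left unchanged) the fit recovered 63% of changes of 0.5 and 87% of changes of 1. For the iPSC comparison (17513 genes, 17313 left unchanged) it recovered 18% and 73%. In the data themselves 34.8% and 38.4% of genes passed, and the adjustment depends on the share of changed genes. The simulated shares therefore do not give the recovery in these data. The number of arrays limits the precision. Probes of 1 gene were also fitted singly. Alternatives were quantile normalization, normexp correction (offset 50), median scaling, the deposited table, no filter on dim genes, the mean of a gene's probes, the comparison's own arrays, replicate and slide-row blocks, single slide rows, array weights and leaving out each array. Values on every array are given for genes of the list that passed in at least 1 comparison with an absolute change of at least 0.5, or that were dim in a group, and for a few others; up to 5 further pathway genes a comparison are named by size. The genes and lists were chosen with earlier results of these data known. Python 3.11.15 was used for tables and figures.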

Additional observations from a re-analysis of the deposited data

Results flagged for a closer look

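Of 66 groups of 4 arrays checked, 4 held an array far from the rest of its group by Dixon's criterion, which chance passes in about 1 group in 20. They were Sfrp2 on the second Tbx3-high array (scaled signal 45.7), Fzd9 on the second Tbx3-high array (120.1), Wnt3 on the first Tbx3-low array (2.29, not well above background) and Nkd1 on the third Tbx3-low array (77.2). Their causes were not tested.

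Of the 23 genes that passed the direct test of the difference in limma (adjusted p under 0.05), 20 differed by at least 0.5 on the log2 scale between the contrast in the mESC, Tbx3-high minus Tbx3-low, and that in the iPSC, wild type minus null-labelled. The other 3 were Wnt11 (0.37), Fzd4 (-0.39) and Prickle1 (-0.45). Among ligands the 20 were Wnt3 (-1.83), Wnt5b (0.60), Wnt6 (-0.86) and Wnt7b (-2.14). Among receptors they were Fzd1 (-0.96), Fzd2 (1.47), Fzd3 (-0.85), Fzd5 (0.73), Fzd7 (0.99) and Fzd9 (-0.72). Among modulators they were Porcn (-0.90), Wls (0.73), Axin1 (0.58), Wif1 (-2.58), Sfrp1 (1.73) and Sfrp2 (-0.72), and among targets Lef1 (-1.71), Sp5 (-0.79), Nkd1 (-1.17) and Rnf43 (-2.05). Leaving out 1 array ended the call for Fzd1 (-0.67 without null-labelled array 2, -0.78 without wild-type array 1), Fzd7 (0.72 without null-labelled array 1, 0.83 without wild-type array 2), Sfrp2 (-0.51 without null-labelled array 2, -0.58 without wild-type array 1) and Wls (0.68 without null-labelled array 1, 0.55 without wild-type array 1). It also ended the call for Wnt3 (-1.95 to -1.71) and Nkd1 (-1.19 to -1.14) without any 1 of the 4 iPSC arrays, and for Sp5 without any array other than null-labelled array 2 or wild-type array 1 (-0.83 to -0.40). Without wild-type array 2, Wnt6 gave -0.54 and still passed. Within slide row 1 the calls of Wnt6 (-0.71, adjusted p = 0.112), Wnt5b (0.52, adjusted p = 0.0639), Fzd1, Fzd4, Fzd7, Sfrp2, Wls, Wnt3 and Sp5 were lost, and with the mean of probes those of Fzd5 (0.43, adjusted p = 0.0605) and Nkd1, which turned to 0.14. The systems lay on separate slides, so a difference between systems and one between slides cannot be told apart.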

How the results depend on the processing

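The number of Wnt pathway genes that passed ran from 15 to 26 in the mESC over all alternatives (19 to 23 when 1 array was left out), from 19 to 26 in the iPSC (19 to 24) and from 16 to 26 for the difference of the contrasts (16 to 25). For the further pathway genes the ranges were 13 to 23, 17 to 23 and 17 to 24. Of the named calls, 12 of 20 in the mESC, 14 of 23 in the iPSC and 10 of 22 for the difference kept their call and direction in every alternative run. The iPSC change of Wnt7a turned to 0.033 with normexp correction (adjusted p = 0.887, limma), and the difference of Nkd1 turned to 0.14 with the mean of its probes (adjusted p = 0.768, limma). The dimmer of these Nkd1 probes was not well above background on any low, null-labelled or wild-type array. The causes were not tested. Median scaling moved the iPSC median over all genes from 0.07 to 0.18. Whether array numbers pair the samples was not settled. The deviations of same-numbered arrays correlated at 0.05 to 0.12 in the mESC, and 2 of 4 mESC numbers matched best with their own. In the iPSC the value was 0.03, a single value with 2 arrays a group. The mESC numbers also followed the slide rows, 1 and 2 lying in row 1 and 3 and 4 in row 2. With the replicate number as a block, 26 of the Wnt pathway genes passed in each of the mESC, the iPSC and the difference. Over all genes that block passed 5616 of 15706, 6600 of 17513 and 5577 of 17674. Counts over all genes moved with the setting too: in the mESC 3396 of 15706 passed within slide row 2 and 6256 with the slide-row block. Slide rows could not be used as a block in the iPSC, whose arrays lay in 1 row. Spots near background limit the size of changes in dim genes such as Dkk1, Wnt3, Wnt4 and Wnt7a.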
